A study of Solanum tuberosum with 6 samples.

Results

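The potato genes 16R, 34G and 35G encode isoforms of the 14-3-3 proteins. They were taken by name from the table of reads per gene, where they are 3 of 32768 genes, and all 3 had enough reads to be tested. The libraries came from leaves, taken in full anthesis from untreated greenhouse plants, of the diploid potato population 15-1, the F1 of a cross between the Solanum hybrid DG 88-89 and S. chacoense. Bulk C had low glycoalkaloid content and high phytotoxic potential, and bulk D had low glycoalkaloid content and low phytotoxic potential, where phytotoxic potential is the inhibition of seedling growth by leaf extract. Each bulk pooled equal amounts of frozen leaf of 3 F1 individuals, and the study's methods call the replicates of a bulk biological. Whether these replicates were separate plants or separate pools is not given in the sources used here, so a p-value measures only the spread between these libraries, which may be technical. Of bulk C 3 libraries (C1, C2 and C3) and of bulk D 2 libraries (D1 and D2) were analysed. The comparison asks which transcripts differ between leaves with similar total glycoalkaloid content and different phytotoxic potential. The study also found that the composition of glycoalkaloids differed, with alpha-solasonine detected only in C and more leptine II in D. The bulks pooled different F1 individuals as well, so phytotoxic potential cannot be told apart from these other differences.

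The 14-3-3 proteins are small, acidic and conserved in all eukaryotes. They work as dimers that bind target proteins carrying a phosphorylated serine or threonine in a short recognition motif, and the binding changes the target's activity, stability or place in the cell. In plant leaves their known partners include the proton pumps of the plasma membrane, which they activate, and nitrate reductase, an enzyme of nitrogen assimilation that they inactivate in its phosphorylated form. Plants carry several isoforms, and dimers can form between the same or different isoforms.

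Depth was even, at 22070364 to 22769554 reads counted on genes per library. The names in the header of the count table were taken to belong to the count field on their right, and the bulk of C3 depends on this reading. By squared differences over counting noise across genes, C3 stood at 4.23 from C1 and 2.33 from C2, and at 12.1 from D1 and 16.9 from D2. Of the leaf markers listed, 2 of 17 names were in the table. RBCS-C, the small subunit of Rubisco, stood at 6862 to 8573 CPM (counts scaled to library size) in the 5 libraries, while the listed leaf gene LOC102604990 was higher in C by a log2 fold change (FC) of 4.33 (edgeR, adjusted p = 6.44e-08). The flower gene AP1, the only name of 5 that was found, stood at 1.53 to 1.63 CPM in C and at 0.122 and 0.675 CPM in D (log2 FC 2.02, edgeR, adjusted p = 0.00955). None of 6 tuber names was found. What part these differences have in the results on the isoforms was not tested.

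16R was the only isoform of the 3 whose transcript differed between the bulks past the test. It lies on an unplaced scaffold of the SolTub_3.0 assembly at positions 682324 to 683900 (gene ID 102588264). It had 546 reads in C1, 599 in C2 and 463 in C3, against 754 in D1 and 770 in D2. After TMM scaling (trimmed mean of M-values), these were 25.8, 26.2 and 21.0 CPM in C and 30.7 and 34.6 CPM in D. Every library of C was below both libraries of D, and C3 was the lowest of the 5.

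Averaged over its libraries, C had 24.3 ± 2.89 CPM of 16R (SD, n = 3) and D had 32.7 ± 2.80 CPM (SD, n = 2). The transcript was downregulated in C by a log2 FC of -0.42, taken as C over D throughout (standard error 0.11, 95% interval -0.67 to -0.17), with an adjusted p-value of 0.0137 from the quasi-likelihood test of edgeR with Benjamini-Hochberg adjustment over all 19630 tested genes. In linear terms D held 1.34 times the level of C, with an interval of 1.13 to 1.59. A call of this direction was common, since 18.6% of the tested genes were lower in C and 15.8% higher, 34.4% together. The change was also a modest one, and 73.2% of the genes past the threshold changed by more than 16R. In bulk leaf tissue, fewer cells that hold a transcript and less of it per cell cannot be told apart.

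The call of 16R rested on single libraries. Without C3 the log2 FC was -0.33 (edgeR, adjusted p = 0.0636), and without D2 it was -0.33 (edgeR, adjusted p = 0.107). Reading the names of the columns used as they stand places C3 in bulk D, while the unused column, headed C1, stays out. The log2 FC of 16R was then -0.15 (edgeR, adjusted p = 0.806), and no gene of the table was past the threshold. Pooled over both bulks, the spread between libraries of a bulk was also larger for 16R than for most genes. The SD within bulks was 0.16 on the log2 scale, larger than that of 80.9% of 3099 genes with a similar number of reads, whose median was 0.10. This was not particular to 16R, since the SD of 35G was larger than that of 83.2% of 422 such genes. In C the libraries of 16R varied by 11.9% of the mean, where counting alone gives 4.09 to 4.65%. In D they varied by 8.56%, where counting gives 3.60 to 3.64%. On raw totals the values were 12.5% in C and 3.64% in D.

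**Figure D1:**
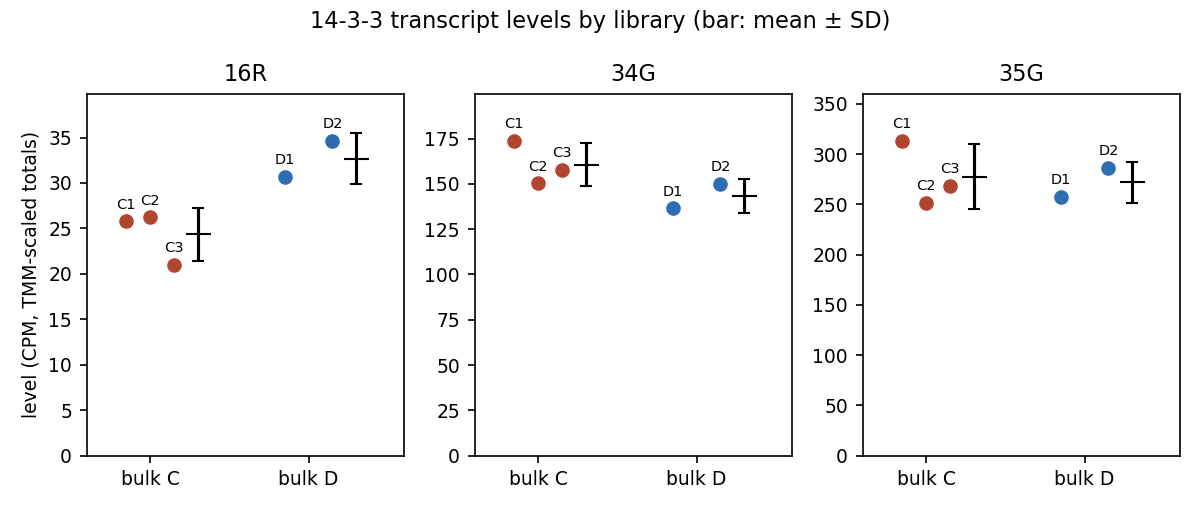
Level of 16R, 34G and 35G in each library, in CPM on TMM-scaled totals with the axes starting at 0. Points are libraries of bulk C (red) and bulk D (blue), and the bar beside them is the mean ± SD (n = 3 in C, n = 2 in D). The C libraries of 16R lie between 21.0 and 26.2 CPM and the D libraries at 30.7 and 34.6 CPM, while the bulks touch for 34G and overlap for 35G.

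34G lies at positions 267769 to 269741 of another unplaced scaffold (gene ID 102582707). Reads numbered 3681, 3434 and 3476 for C1 to C3 and 3354 and 3333 for D1 and D2, more reads than 94.96% of the tested genes. The levels were 174, 150.37 and 158 CPM in C and 137 and 149.96 CPM in D. The lowest library of C, C2, stood just above the highest of D, D2, so that the bulks were apart by less than their own spread. The mean of the C libraries was 161 ± 11.99 CPM (SD, n = 3) and that of the D libraries 143 ± 9.51 CPM (SD, n = 2). The log2 FC was 0.17 (standard error 0.09, 95% interval -0.03 to 0.36), which did not pass the test (edgeR, adjusted p = 0.184). The interval allows from 0.978 to 1.29 times the level of D.

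35G had the most reads of the isoforms, with 6634, 5741 and 5915 for C1 to C3 and 6333 and 6368 for D1 and D2, more than 97.6% of the tested genes. It lies at positions 420519 to 424954 of an unplaced scaffold (gene ID 102580766). The levels were 313, 251 and 268 CPM in C and 258 and 287 CPM in D. The bulks overlapped, since both D libraries fell inside the range set by C1 at the top and C2 at the bottom. The mean was 278 ± 31.97 CPM for C (SD, n = 3) and 272 ± 20.3 CPM for D (SD, n = 2), and the log2 FC was 0.03 (standard error 0.10, 95% interval -0.20 to 0.26, edgeR, adjusted p = 0.860). A difference of either direction between 0.871-fold and 1.195-fold lies inside this interval. On TMM-scaled totals, 2 of the 3 isoforms had bulks that did not overlap, as did 57.1% of all tested genes. For 34G this depended on the scaling, since on raw totals C2 (150.8 CPM) stood below D2 (151.0 CPM).

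**Figure D2:**
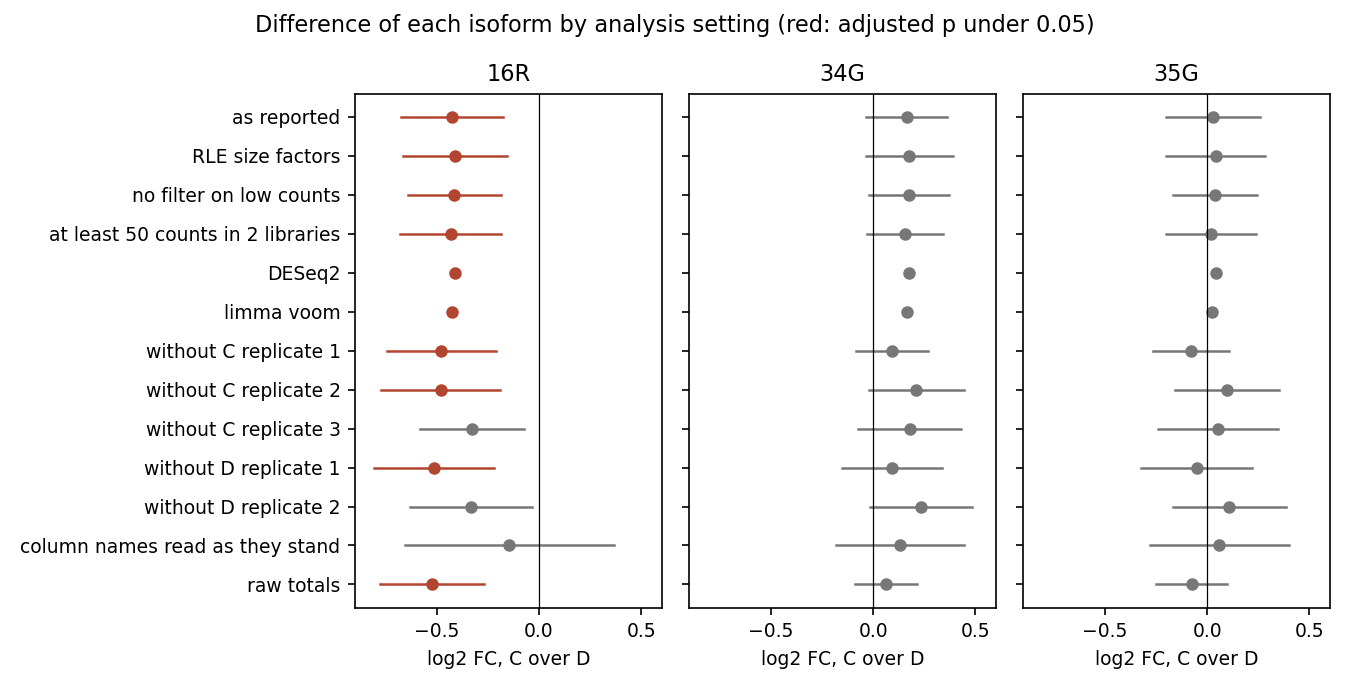
The log2 FC (C over D) of each isoform as reported and under alternative settings other than the replicate block, with 95% intervals where the tool gives them (DESeq2 and limma voom are drawn as points only). Red marks an adjusted p-value under 0.05. 16R lies below 0 in every setting drawn, and among those drawn it is red except without C3, without D2 and with the column names read as they stand, while 34G and 35G are never red.

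Ratios between isoforms within a library do not depend on how libraries are scaled. For every 100 reads of 35G, 16R had 8.23, 10.4 and 7.83 reads in C1 to C3 and 11.9 and 12.1 in D1 and D2. For every 100 reads of 34G it had 14.8, 17.4 and 13.3 in C and 22.5 and 23.1 in D. Beside either isoform 16R was lower in all 3 libraries of C than in both libraries of D, and the D libraries lay close together.

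The ratio of 34G to 35G went the other way, with 55.5, 59.8 and 58.8 reads of 34G per 100 reads of 35G in C and 53.0 and 52.3 in D. C1, which had the most 35G, came nearest to D. An exact test of 3 libraries against 2 has 10 arrangements and cannot give a p-value under 0.1, and no model was fitted to these ratios. Whether the change of 16R differs from that of 34G or 35G was not tested.

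As a share of the reads of the 3 isoforms, 16R made up 5.03, 6.13 and 4.70% in C and 7.22 and 7.35% in D. 34G made up 33.9, 35.1 and 35.3% in C and 32.1 and 31.8% in D. The share of 35G was 58.7 to 61.1% across bulk C and 60.7 and 60.8% across bulk D, so that the bulks overlapped. The summed level of the 3 came to 463 ± 44.5 CPM for C (SD, n = 3) and 448 ± 32.6 CPM for D (SD, n = 2), a difference smaller than the spread within either bulk.

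**Figure D3:**
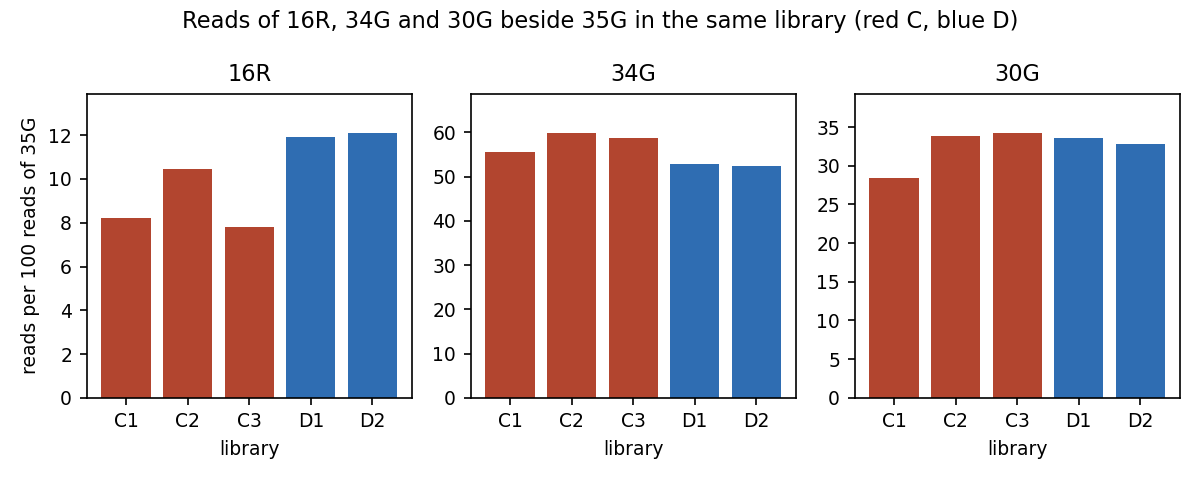
Reads of 16R, 34G and 30G for every 100 reads of 35G in the same library, as 1 bar per library (C red, D blue) with axes from 0. For 16R the bars of C reach 7.83 to 10.4 and those of D 11.9 and 12.1, for 34G the bars of C lie above those of D, and for 30G the bulks overlap.

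Levels of different genes were compared per kilobase of gene span, which includes introns, because no transcript length was used here. On this scale, in CPM per kilobase, 34G stood at 81.4 ± 6.08 in C (SD, n = 3) and 72.6 ± 4.82 in D (SD, n = 2). 35G, whose gene spans 4436 bases against 1973 for 34G, stood at 62.6 ± 7.21 and 61.3 ± 4.58. 16R, with a span of 1577 bases, was the lowest in both bulks, at 15.4 ± 1.84 in C and 20.7 ± 1.77 in D. The order 34G, 35G, 16R held in each of the 5 libraries, although the ranges of 34G (69.2 to 88.1) and 35G (56.7 to 70.6) over all libraries overlapped. By reads alone 35G came before 34G, so the order of these isoforms depends on the length used.

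The gene LOC102580127 carries 14-3-3 and 30G among its older names in the annotation, and it was added after its values were seen. Its read numbers were 1885, 1943 and 2024 for C1 to C3 and 2125 and 2089 for D1 and D2, or 89.0, 85.1 and 91.8 CPM against 86.5 and 94.0 CPM. The bulks overlapped, and the log2 FC was -0.03 (standard error 0.08, 95% interval -0.20 to 0.15, edgeR, adjusted p = 0.840). Its reads per 100 reads of 35G were 28.4, 33.8 and 34.2 in C and 33.6 and 32.8 in D, where only C1 stood apart. Other 14-3-3 genes were not looked for by sequence.

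35G and 16R lie near each other. In the annotation both fall in the same unbroken run of rising positions, which was read as 1 scaffold, with 257 kb between the end of 35G and the start of 16R. The 26 annotated genes between them include 18 that were tested. Of these 3 were higher and 5 lower in C, beside 15.8% and 18.6% of all tested genes. Their log2 FCs ran from -1.70 to 0.68. No annotated gene overlaps 16R, 34G or 35G.

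Of the 105 other tested genes on that scaffold, 13 were higher and 14 lower in C, 25.7% together against 34.4% of all tested genes, and the median log2 FC was 0.04. The tested gene next to 16R, RSI1, had a log2 FC of 0.04 (edgeR, adjusted p = 0.791). LOC102588916 after it had one of -0.12 (edgeR, adjusted p = 0.339), and neither passed the test. The tested gene beyond these, LOC102589676, was lower in C (log2 FC -1.14, edgeR, adjusted p = 7.81e-05). Among the 10 tested genes nearest to 16R, all within 45.7 kb, 2 were higher and 2 lower in C.

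**Figure D4:**
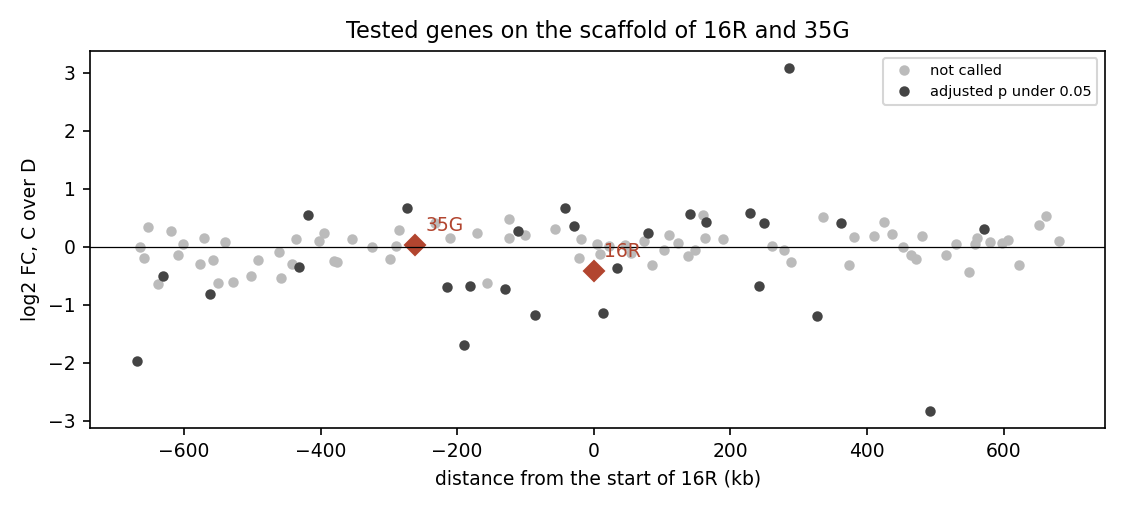
The log2 FC (C over D) of each tested gene in the run of genes that holds 35G and 16R, by distance from the start of 16R in kb. Dark points passed an adjusted p-value of 0.05 and diamonds are the isoforms. Called genes of both directions lie on both sides of 16R, 13 higher and 14 lower in C. These were 25.7% of the tested genes other than the isoforms, against 34.4% of all tested genes.

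The scaffold of 34G had 36 other tested genes, of which 9 were higher and 10 lower in C (52.8% together, median log2 FC 0.11). Of all tested genes 34.4% were called, 15.8% higher and 18.6% lower in C. The 10 tested genes nearest to 34G, within 53.8 kb, held 2 that were higher and 3 that were lower in C. For 35G the corresponding counts were 1 and 3 within 80.8 kb. The neighbour of 34G named SnRK2.1 among its older names (LOC102582360) had a log2 FC of -0.04 (standard error 0.13, edgeR, adjusted p = 0.847). It encodes a kinase of the family that acts in osmotic stress and abscisic acid signalling. A further member of that family, SnRK2.8 (LOC102590012), stood near 16R with a log2 FC of 0.01 (standard error 0.45, edgeR, adjusted p = 0.994). With so large an error, a sizeable difference of SnRK2.8 in either direction remains possible.

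Genes of protein families with members that plant 14-3-3 proteins are known to bind or regulate were taken from a list of symbols. They are called partner genes here, although these data do not show that each potato protein binds a 14-3-3 protein. Of the symbols, 9 were in the table and all had enough reads to be tested. SPS and SKT2 were higher in C and none was lower, 2 of 9 called where 34.4% of all tested genes were, and 7 of 9 had bulks that did not overlap beside 57.1% of all tested genes. The median log2 FC of the 9 was 0.15, against -0.01 over all tested genes.

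SPS encodes sucrose-phosphate synthase, which makes the precursor of sucrose in leaves. It stood at 333, 345 and 362 CPM in C and 273 and 259 CPM in D, and every library of C was above both of D (log2 FC 0.38, standard error 0.08, edgeR, adjusted p = 0.00479). SKT2, a potassium channel gene, averaged 25.1 ± 1.11 CPM for C (SD, n = 3) and 18.1 ± 0.68 CPM for D (SD, n = 2). Its log2 FC was 0.47 (standard error 0.10, edgeR, adjusted p = 0.00361). FT, of the family of the mobile flowering signal, lay at the threshold with 116 reads in C1, 107 in C2 and 142 in C3 against 80 in D1 and 95 in D2 (log2 FC 0.56, standard error 0.20, edgeR, adjusted p = 0.05004).

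The plasma membrane proton pumps were the most read of the genes found by symbol, and neither passed the test. PHA1 stood at 786 ± 14.4 CPM for C (SD, n = 3) and 779 ± 62.3 CPM for D (SD, n = 2). Its log2 FC was 0.01 (95% interval -0.18 to 0.21, edgeR, adjusted p = 0.926). PHA2 stood at 481 ± 14.01 and 448 ± 9.33 CPM, with a log2 FC of 0.10 (95% interval -0.08 to 0.28, edgeR, adjusted p = 0.378). NR3, a nitrate reductase, averaged 262 CPM over C and 291 CPM over D. Its log2 FC was -0.15 (edgeR, adjusted p = 0.183). When libraries were not scaled beyond their totals it became -0.25 (edgeR, adjusted p = 0.0325), while the median of all genes moved from -0.01 to -0.11. The guard cell potassium channel KST1 and the calcium-dependent protein kinases CDPK1 and CDPK2 had log2 FCs of 0.36, 0.15 and 0.13, and none passed the test (edgeR, adjusted p = 0.204, 0.257 and 0.287).

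Matching the same list to older names in the annotation, a step added after the data were seen, gave 10 further genes. Of these 9 were tested, 1 was higher and 3 were lower in C, beside 15.8% and 18.6% of all tested genes. The starch synthase genes SS2 and SS3 moved in opposite directions. SS2 (LOC102583115) stood at 64.6, 68.7 and 69.1 CPM in C and 117 and 122 CPM in D (log2 FC -0.83, standard error 0.08, edgeR, adjusted p = 1.17e-05), and SS3 (LOC102577674) at 188, 230 and 226 CPM in C and 156 and 138 CPM in D (log2 FC 0.55, standard error 0.10, edgeR, adjusted p = 0.00201). Neither overlapped between the bulks.

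CDPK7 (LOC102596332) was lower in C, with 17.7 CPM on average against 25.6 CPM in D (log2 FC -0.53, edgeR, adjusted p = 0.00261). RBOHA (LOC102579392), an NADPH oxidase that makes superoxide at the plasma membrane, was lower as well, with 15.2 against 19.99 CPM (log2 FC -0.40, edgeR, adjusted p = 0.0228), and it was no longer past the threshold without C3 or without D1. CDPK3, CDPK4, CDPK5, RBOHC and RBOHD did not pass the test, with log2 FCs from -0.04 to 0.22, and RBOHB had no read in any library. Symbol and older name together gave 18 tested genes, of which 3 were higher and 3 lower in C, beside 15.8% and 18.6% of all tested genes.

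**Figure D5:**
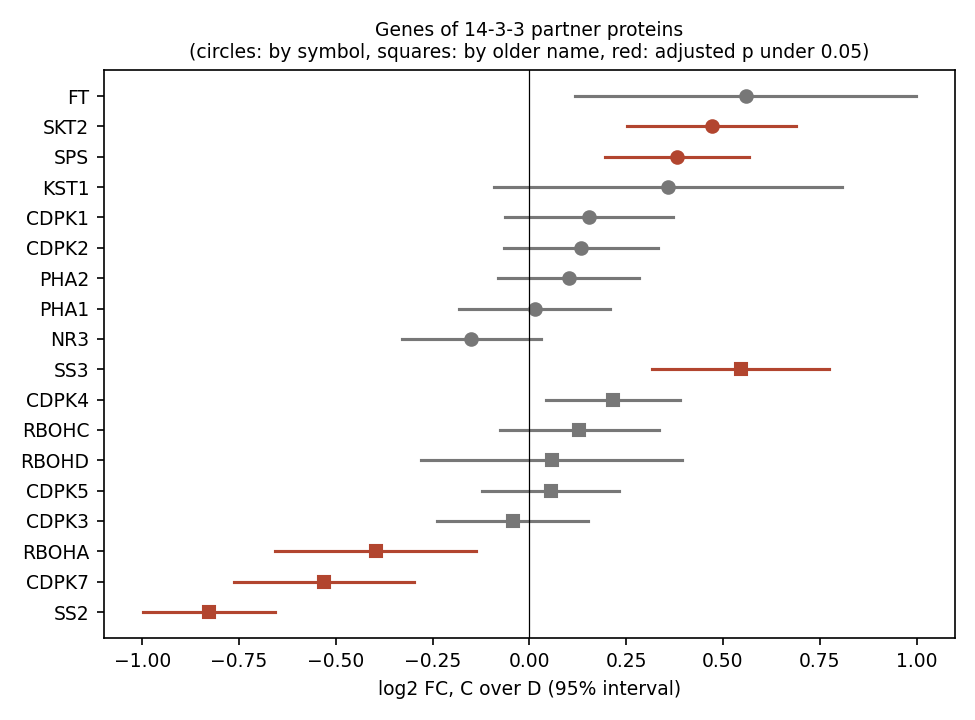
The log2 FC (C over D) with its 95% interval for the 18 tested partner genes of the symbol list, found by symbol (circles) or by older name (squares). Red marks an adjusted p-value under 0.05. Both directions occur, from SS2 at -0.83 to FT at 0.56, and both proton pump genes lie near 0.

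The genes most like each isoform were sought by the root mean square difference of their log2 levels, each centred on its own mean over the 5 libraries, among 13429 genes with a mean of at least 100 reads. For 16R these were LOC102584034 (0.0255), LOC102601839 (0.0287) and LOC102603290 (0.0287). The nearest gene with a symbol was SHKA (0.0824, log2 FC -0.35, edgeR, adjusted p = 0.0104), whose enzyme stands at the entry of the shikimate pathway. Patterns as near as 0.1 were found in 315 genes for 16R, in 1969 for 34G and in 1466 for 35G. For 34G the nearest were LOC102600401 (0.0154), LOC102604656 (0.0165), LOC102597103 (0.0186) and, with a symbol, GMP (0.0296). For 35G they were LOC102600476 (0.0149), LOC102602309 (0.0150), LOC102586427 (0.0186) and, with a symbol, RSI1 (0.0220), whose start lies 4.12 kb from that of 16R. With 5 libraries, many genes come this near to any pattern, and the likeness is a description only.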

How the data were processed

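The authors sequenced leaf RNA of both bulks as 100-bp paired-end reads, which were aligned to SolTub_3.0 with TopHat 2.0.9 and Bowtie 2.1.0 and counted per gene with HTSeq. The authors deposited raw counts without normalization. Whether counting used the strand is not given in the sources used here. Reads of similar 14-3-3 copies may have been dropped or counted on another copy. The header names 7 libraries over 1 field of gene names and 6 of counts. Each name was taken to belong to the count field on its right. Earlier work on these data had chosen this by comparing values with the study's own, so closeness to the study is not independent. Replicate numbers follow header order. The remaining 1 count column stayed unused, and D3 is not analysed here.

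Bulks were compared in R 4.3.3 with edgeR 4.0.16 (TMM, quasi-likelihood test, Benjamini-Hochberg, threshold 0.05). Genes passed filterByExpr (10 counts at the median depth in 2 libraries, 15 in total). The test was tried on simulated counts. Alternatives were size factors, filters, DESeq2 1.42.0, limma 3.58.1 voom, leaving out each library, a block for the replicate number and the header as it stands for the columns used. Raw totals and matching by older name were added after the data were seen. Genes named are the isoforms, all partner genes found, and for each isoform the 3 nearest patterns plus the nearest with a symbol, beside neighbours and 30G, chosen after their values were seen. Members and lists were chosen with earlier results of these data known. Symbols matched RefSeq for 32736 of 32768 genes. Scaffolds were taken from row order, where a fall in start position opens a new one.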

Additional observations from a re-analysis of the deposited data

How the results depend on the processing

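16R was lower in C under all 13 alternatives and past the threshold in 9 (log2 FC -0.52 to -0.15, edgeR, DESeq2 or limma, adjusted p from 0.00406 to 0.806). 34G and 35G were past it in none (adjusted p from 0.170 to 0.725 and from 0.504 to 0.909), and 35G was below 0 without C1, without D1 and on raw totals. Leaving out each library in turn gave -0.51 to -0.33 for 16R, 0.09 to 0.24 for 34G and -0.08 to 0.11 for 35G. It gave 4466 to 6849 genes called, 2029 to 3038 higher and 2394 to 3811 lower in C, and 2 to 3 partner genes found by symbol. With 1 library of D left, its spread is assumed to be like that of the others. The replicate numbers did not pair the libraries (deviations of C1 and D1 correlated at -0.54, of C2 and D2 at -0.47, both across 13039 genes). With 2 libraries of D their deviations are exact opposites, so the same values mean that C1 varied with D2 and C2 with D1. What this shared variation does to the comparison of the bulks was not tested. With the replicate block 3448 genes were called, 1396 higher and 2052 lower, with 0 partner genes (1 at an unadjusted p under 0.05) and 16R at -0.33 (edgeR, adjusted p = 0.186). Replicate 3 held only C3, so the block left C3 without weight in the difference between bulks. This alternative is therefore close to leaving out C3, which also gave -0.33 for 16R. With the header as it stands for the columns used, 0 genes were called, 0 higher and 0 lower, with 0 partner genes and 16R at -0.15. At an unadjusted p under 0.05 edgeR then had 1301 genes and limma voom 865. On raw totals the median of all genes moved to -0.11, 1964 genes were higher in C (29.4% of those called, against 46.0% with TMM), and relative to that median 16R stood at -0.41, 34G at 0.17 and 35G at 0.04. The cause of these changes was not tested. FT was called in edgeR with median-of-ratios factors, without a filter and without C2. It was not called by DESeq2, by limma voom, with the stricter filter, without C1 or without C3. Nor was it called with the replicate block, on raw totals or with the header as it stands. Its log2 FC was 0.37 without D1 and 0.77 without D2. Relatives by protein sequence and levels per coding length were not run. All intervals rest on 5 libraries.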
